A study of Rattus norvegicus with 6 samples.

Results

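Expression of 8 genes of fatty acid and cholesterol synthesis was followed in whole lung of rats with monocrotaline (MCT) lung disease and of saline controls. The genes were Fasn (ENSRNOG00000045636), Scd (ENSRNOG00000013552), Acaca (ENSRNOG00000034013), Acly (ENSRNOG00000016924), Srebf1 (ENSRNOG00000003463), Srebf2 (ENSRNOG00000007400), Hmgcs1 (ENSRNOG00000016552) and Sqle (ENSRNOG00000009550). They were chosen by symbol from the 23802 genes of the deposited table, and all 8 were present and were among the 15250 genes that passed the filter on low counts. All 6 samples came from male Sprague-Dawley rats of 200 to 250 g, labelled wild type, and no age is stated. The 3 control lungs came from rats given saline subcutaneously and were also collected 4 weeks after injection. The 3 MCT lungs came from rats given 1 dose of 60 mg/kg of MCT, a plant alkaloid that injures lung vessels, and were collected 4 weeks later. The labels give the route of the MCT injection as intraperitoneal in 2 places and as subcutaneous in another. They do not state whether the samples of a group came from different animals. The p-values therefore rest on sample-to-sample variation of unknown origin, part of which may be technical.

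Lipid synthesis starts in the cytosol from acetyl-CoA. Acly makes acetyl-CoA from citrate, Acaca carboxylates it to malonyl-CoA, Fasn builds palmitate from both, and Scd places a double bond in the saturated product. Hmgcs1 makes the HMG-CoA from which the mevalonate and sterol pathway runs, and Sqle oxidises squalene on the way to cholesterol. Srebf1 and Srebf2 encode membrane-held transcription factors that are cut free when sterols are low. The first mainly drives fatty acid genes and the second mainly drives cholesterol genes. In lung, alveolar type 2 cells use these pathways to make the lipids of surfactant, and macrophages take up and export cholesterol.

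None of the 8 genes was called higher or lower in MCT lungs at a Benjamini-Hochberg adjusted p under 0.05 by edgeR's quasi-likelihood test, against 13.1% of all tested genes (8.01% higher and 5.11% lower). DESeq2 and limma-voom also called 0 of the 8, and at an unadjusted p under 0.05 edgeR passed 1, Hmgcs1, against 30% of all tested genes. The 8 log2 fold changes, MCT over control, ran from -0.28 to 0.51. Hmgcs1, Sqle, Scd and Fasn had values above 0 and Acaca, Acly, Srebf1 and Srebf2 had values below 0. The members' median was -0.01, and that of all tested genes was also -0.01. In a bulk sample, fewer cells of a type and less RNA per cell cannot be told apart.

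The enzymes of the sterol branch had the largest positive differences among the 8. Hmgcs1 stood at 53.5, 62.2 and 87.6 CPM (counts scaled by TMM-adjusted library size) in the controls (replicates 1, 2 and 3 in this order here and later) and at 112, 73.6 and 104 CPM in the MCT samples. MCT replicates 1 and 3 lay above all controls, and MCT replicate 2 lay below control replicate 3. The means were 67.8 ± 17.7 and 96.8 ± 20.5 CPM (SD, n = 3 each), a 1.43-fold difference (log2 0.51, SE 0.22, unadjusted p = 0.0426; edgeR adjusted p = 0.151).

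Sqle stood at 22.6, 32.3 and 38.8 CPM in the controls and at 46, 33.3 and 48.7 CPM in the MCT samples. The same MCT replicate 2 fell inside the control range. The means were 31.2 ± 8.13 and 42.6 ± 8.24 CPM (SD, n = 3 each), a 1.36-fold difference with a 95% interval from 0.963 to 1.93 (edgeR adjusted p = 0.212). Hmgcs1 and Sqle followed each other closely over the 6 samples. After each gene was centred on its own mean, they differed by a root mean square of 0.11 on the log2 scale, less than their own spreads of 0.38 and 0.37.

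The 4 genes of the fatty acid branch were not called, and their differences had both signs. Fasn, the palmitate synthase, stood at 541, 424 and 275 CPM in the controls and at 394, 474 and 579 CPM in the MCT samples. The ranges overlapped widely, and the lowest sample was a control and the highest an MCT sample. The means were 413 ± 133 and 482 ± 93 CPM (SD, n = 3 each), with a log2 fold change of 0.22 and a 95% interval from -0.34 to 0.79 (edgeR adjusted p = 0.592).

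Scd, the desaturase, was the most variable of the 8. It stood at 311, 86.2 and 129 CPM in the controls and at 114, 298 and 214 CPM in the MCT samples. Control replicate 1 and MCT replicate 2 were high and control replicate 2 was lowest, so the highest and the lowest sample were both controls, 3.61-fold apart. Its pooled within-group SD of 0.83 on the log2 CPM scale was larger than that of 96.8% of all tested genes. The log2 fold change was 0.25, with a 95% interval from -0.84 to 1.33 (edgeR adjusted p = 0.772). It turned to -0.07 without control replicate 2 and to -0.10 without MCT replicate 2. Of its 6 deposited counts, 4 were not whole numbers, and the sources used here do not state how shared reads were divided. The paralog Scd2 was far higher per length, at 115 to 193 FPKM (a level scaled by gene length and depth) against 19.1 to 68.2 FPKM for Scd, and had a log2 fold change of -0.23 (edgeR adjusted p = 0.503). Of the 6 deposited counts of Scd2, 4 were also not whole numbers, so the same limit holds for both genes.

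Acly and Acaca, the first steps toward malonyl-CoA, had lower CPM in every MCT sample than in every control without passing the test. Acly, the citrate lyase, stood at 171, 188 and 182 CPM in the controls and at 138, 150 and 166 CPM in the MCT samples. Its log2 fold change was -0.26 with a 95% interval from -0.52 to 0.01 (edgeR adjusted p = 0.185). Acaca, the carboxylase of fatty acid synthesis, stood at 16, 16.3 and 19.9 CPM in the controls and at 15.6, 15.1 and 13.1 CPM in the MCT samples. Control replicate 1 and MCT replicate 1 differed by less than the spread within either group, and their deposited FPKM values were equal at 2.51, so that on the FPKM scale the groups touched. Its log2 fold change was -0.25 with a 95% interval from -0.62 to 0.11 (edgeR adjusted p = 0.328). On the CPM scale these were the 2 members of 8 whose groups did not overlap, 0 with MCT higher and 2 with MCT lower. Over all tested genes the groups did not overlap in 35.4%, 18.4% with MCT higher and 17% with MCT lower.

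The transcription factor genes had small negative differences. Srebf1 stood at 90.2, 89.7 and 78.2 CPM in the controls and at 55, 80.9 and 75.9 CPM in the MCT samples. MCT replicate 1 stood apart below the rest, and without it the log2 fold change of -0.28 (95% interval -0.64 to 0.07, edgeR adjusted p = 0.262) was -0.13. Srebf2 stood at 173, 206 and 186 CPM in the controls and at 135, 170 and 174 CPM in the MCT samples. MCT replicate 1 was again lowest and MCT replicate 3 just passed control replicate 1. Its log2 fold change was -0.24 (95% interval -0.55 to 0.08, edgeR adjusted p = 0.292). The 2 genes kept nearly the same ratio: the log2 CPM of Srebf1 minus that of Srebf2 was -1.13 ± 0.16 in controls and -1.19 ± 0.11 in MCT lungs (SD, n = 3 each). All 6 deposited counts of Srebf1 were fractional.

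**Figure D1:**
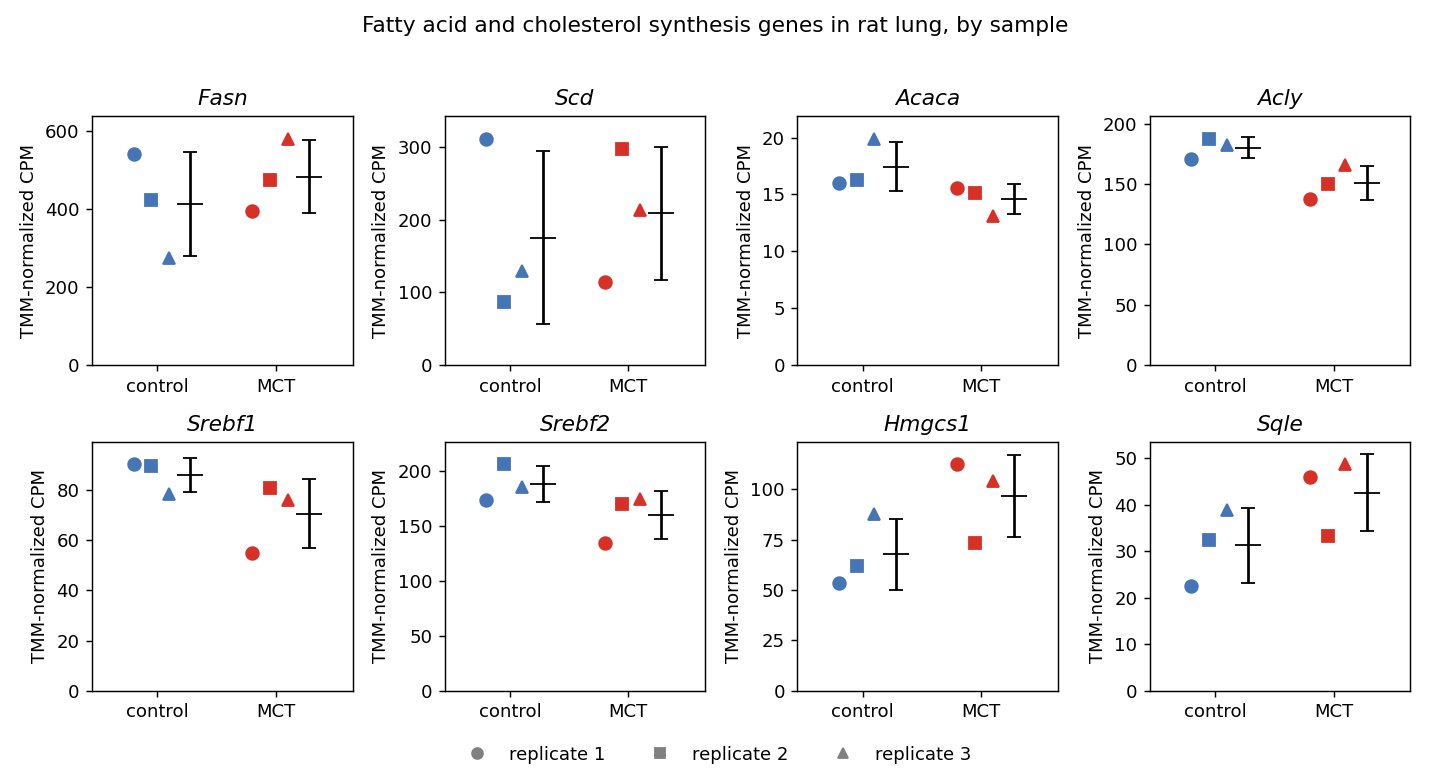
TMM-normalized CPM of the 8 genes (1 panel each, axes from 0) in 3 control (blue) and 3 MCT (red) lungs, with the shape giving the replicate and the black bar the mean and SD of a group. Acly and Acaca are the panels with no overlap between groups, Scd has samples from 86.2 to 311 CPM among the controls alone, and MCT replicate 2 lies within or near the control range for Hmgcs1 and Sqle.

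The means of the 2 branches can be set side by side in each sample. The mean log2 CPM of Fasn, Scd, Acaca and Acly was 6.87 ± 0.28 in controls and 6.90 ± 0.23 in MCT lungs (SD, n = 3 each). That of Hmgcs1 and Sqle was 5.49 ± 0.37 and 5.98 ± 0.31. The fatty acid mean minus the sterol mean was 2.07, 1.20 and 0.87 for the controls and 0.46, 1.43 and 0.85 for the MCT samples. The groups overlapped in this difference. Control replicate 1 stood highest and MCT replicate 1 lowest.

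Per length, the order of the levels was Fasn, Scd, Acly, Srebf2, Hmgcs1, Srebf1, Sqle and Acaca. Over the 6 samples the mean FPKM was 48.8 for Fasn, 42.6 for Scd, 38.4 for Acly and 35.4 for Srebf2, and the ranges of these 4 genes overlapped. Hmgcs1 followed at 25.6, with a range from 16.3 to 35.1 FPKM that overlapped those of Srebf2 above it and of Srebf1 below it. Srebf1 was at 18.2 and Sqle at 13.6 FPKM, with overlapping ranges. Acaca was apart from all others, at 2.09 to 3.29 FPKM against at least 8.13 FPKM in any sample of Sqle. These levels rest on 187 to 369 counts per sample for Acaca and on 5105 to 8270 for Fasn.

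**Figure D2:**
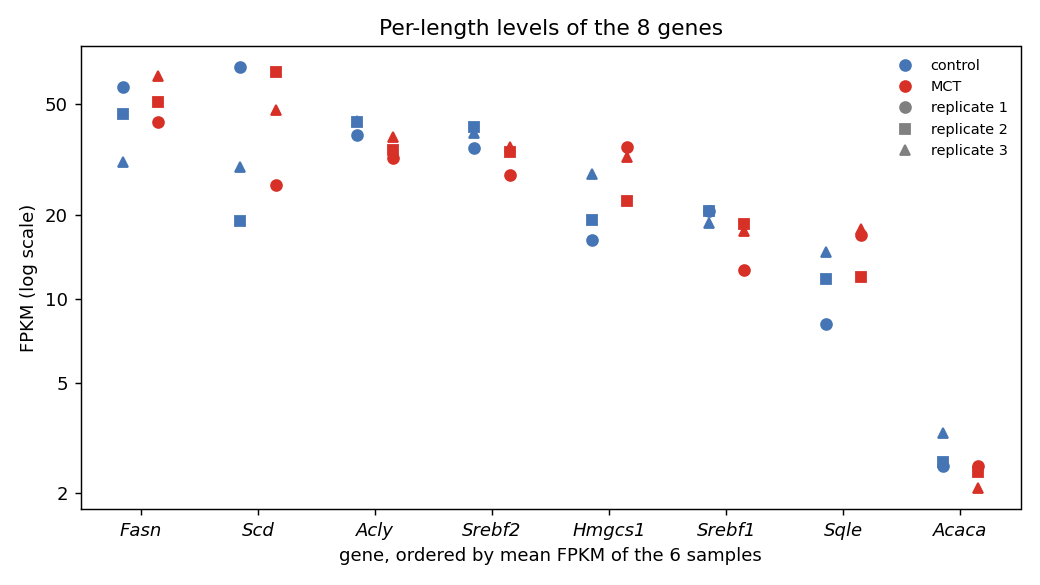
FPKM of the 8 genes (log axis) in control (blue) and MCT (red) lungs, ordered by the mean of the 6 samples, with the shape giving the replicate. Acaca lies alone at 2.09 to 3.29 FPKM, while neighbouring genes from Fasn to Sqle share part of their ranges.

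Of the 20 cholesterol synthesis enzymes listed for the pathway, Hmgcs1 and Sqle among them, 19 had a log2 fold change above 0, against 48.7% of all tested genes. The test called 2 of the 20 higher and 0 lower, against 8.01% and 5.11% of all tested genes. Their median log2 fold change was 0.39, against -0.01 for all tested genes, and in 10 of 20 the groups did not overlap with MCT higher, against 18.4% of all tested genes. Mvd, which makes isopentenyl pyrophosphate from mevalonate pyrophosphate, rose 1.95-fold, from 10.7 ± 0.405 to 20.8 ± 5.53 CPM (SD, n = 3 each, edgeR adjusted p = 0.023). Its 3 controls lay close together at 10.6, 11.1 and 10.3 CPM, and the MCT samples at 25.4, 14.6 and 22.3 CPM. Cyp51, the lanosterol demethylase, rose 1.83-fold, from 64.4 ± 13.2 to 118 ± 26.1 CPM (SD, n = 3 each, edgeR adjusted p = 0.0237). All its MCT samples, at 146, 95.1 and 112 CPM, lay above the highest control at 79.6 CPM.

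Both calls depended on the samples held. That of Mvd was lost whichever sample other than MCT replicate 2 was left out (edgeR adjusted p = 0.0571 to 0.0867), and that of Cyp51 when control 1, control 2, MCT 1 or MCT 3 was left out (0.0577 to 0.0898), with fold changes of 0.80 to 0.99 and 0.68 to 0.91 (log2). Acat2, the cytosolic thiolase ahead of Hmgcs1, had a log2 fold change of 0.86 (edgeR adjusted p = 0.0812) and was called by DESeq2 (adjusted p = 0.0391). Fdps, the most abundant enzyme of the list by CPM, had 0.33 (edgeR adjusted p = 0.186). The enzyme with a value below 0 was Mvk, outside the rule for named genes and chosen after its value was seen, at -0.13 (edgeR adjusted p = 0.793).

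Whether the samples parted over the whole list depended on the summary. The mean log2 CPM of the 20 enzymes was 4.49, 4.66 and 4.84 in the controls and 5.21, 4.93 and 5.12 in the MCT samples, with no overlap. Relative to each enzyme's control mean on the log2 CPM scale, the median enzyme stood at -0.15, -0.04 and 0.22 for the controls and at 0.54, 0.19 and 0.39 for the MCT samples. Control replicate 3 lay above MCT replicate 2 in that median. The number of enzymes above their control mean was 3, 9 and 15 of 20 in the controls and 18, 19 and 19 of 20 in the MCT samples. Leaving out 1 sample at a time, the list's median stayed between 0.28 and 0.53.

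**Figure D3:**
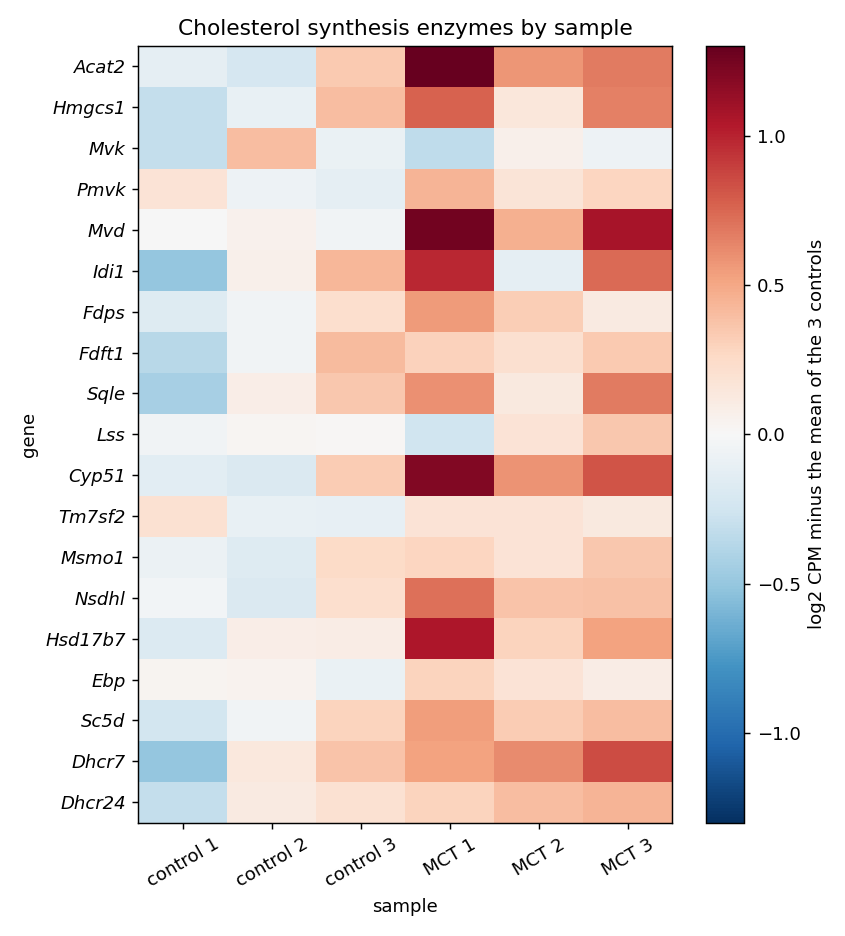
Log2 CPM of 19 of the 20 cholesterol synthesis enzymes in each sample minus the mean of the 3 controls, with red above and blue below that mean and the colour scale limited to 1.3 in both directions. All 3 MCT columns are red in most rows (18, 19 and 19 of all 20 enzymes), and so is control replicate 3 (15 of 20).

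Promoter sequence was examined for the sterol genes because Srebf factors act there together with partner factors. RefSeq windows of 300 bases (250 before to 50 after the start site, build GRCr8, while the reads were mapped to Rnor_6.0) were found for 5 of the 8 genes and for 15 of the 20 enzymes. They are shown for Hmgcs1, the member with the largest difference, for Mvd and Cyp51, the called enzymes, and for Scd, the most variable member. Capitals mark CCAAT boxes (CCAAT, bound by NF-Y) and GC boxes (GGGCGG, bound by Sp1) on either strand, and no match overlapped another in these 4 windows. The windows lie at chr2:53382054-53382353 on the plus strand for Hmgcs1, chr19:67414925-67415224 on the minus strand for Mvd, chr4:30991443-30991742 on the plus strand for Cyp51 and chr1:253231682-253231981 on the minus strand for Scd. Each is printed 5′ to 3′ on the gene's strand.
Hmgcs1: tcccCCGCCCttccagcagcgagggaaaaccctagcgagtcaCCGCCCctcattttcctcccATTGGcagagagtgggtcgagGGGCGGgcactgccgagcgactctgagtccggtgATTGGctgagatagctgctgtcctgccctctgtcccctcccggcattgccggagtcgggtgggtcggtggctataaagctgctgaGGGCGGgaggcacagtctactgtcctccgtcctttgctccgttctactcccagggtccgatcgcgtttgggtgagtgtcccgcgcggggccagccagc
Mvd: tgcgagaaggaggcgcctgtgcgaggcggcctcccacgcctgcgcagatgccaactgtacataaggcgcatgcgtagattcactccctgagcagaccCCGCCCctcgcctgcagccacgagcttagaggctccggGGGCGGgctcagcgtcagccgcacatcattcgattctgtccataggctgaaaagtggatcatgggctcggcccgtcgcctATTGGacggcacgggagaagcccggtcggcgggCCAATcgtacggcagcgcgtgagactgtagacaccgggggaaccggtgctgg
Cyp51: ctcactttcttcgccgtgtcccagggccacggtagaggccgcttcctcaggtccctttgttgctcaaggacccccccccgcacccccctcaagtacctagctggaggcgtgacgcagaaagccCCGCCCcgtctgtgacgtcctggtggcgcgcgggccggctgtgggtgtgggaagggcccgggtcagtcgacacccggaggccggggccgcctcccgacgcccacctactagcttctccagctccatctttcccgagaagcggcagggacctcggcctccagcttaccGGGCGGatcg
Scd: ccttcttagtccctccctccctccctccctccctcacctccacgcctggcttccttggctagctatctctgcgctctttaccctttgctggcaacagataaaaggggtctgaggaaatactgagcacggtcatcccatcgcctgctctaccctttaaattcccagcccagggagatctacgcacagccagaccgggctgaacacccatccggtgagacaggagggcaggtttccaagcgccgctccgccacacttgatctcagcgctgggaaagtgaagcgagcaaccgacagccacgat

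The Hmgcs1 window held 2 CCAAT and 4 GC boxes, the Mvd window 2 and 2, the Cyp51 window 0 and 2, and the Scd window neither. Among the 15 cholesterol enzymes with a window, 12 held a CCAAT box (80%) and 13 a GC box (86.7%), against 37.5% and 33.1% of all 33469 windows in the table. Shares above those of all windows were not particular to this list. In the fatty acid, Srebf control, export and glycerolipid lists described below, 51.5% to 70.6% of genes with a window held a CCAAT box. A GC box was held by 47.1% to 72.7% of them. Some genes of these lists had more than 1 window, and a match in any of them counted, whereas 37.5% and 33.1% are shares of windows. The sterol regulatory element spelled TCACNCCAC was in 0 of the 15 and in 0 of the 5 member genes, against 1.12% of all windows. So few genes cannot show a share below 1.12%. In the lists described below, this element was found only in Pcyt1a, 1 of 33 glycerolipid genes with a window (3.03%). The E-box CACGTG was in 1 of the 15 and in 0 of the 5, against 6.42% of all windows. A match is a description of the letters, and other spellings or sites outside the window were not searched.

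Genes of fatty acid synthesis, elongation and desaturation had values on both sides of 0. Of the 22 tested genes of 26 listed, Fasn, Scd, Acaca and Acly among them, 12 had a value above 0, against 48.7% of all tested genes. Without these 4 members the count was 10 of 18. The test called 2 of the 22 higher and 2 lower, against 8.01% and 5.11% of all tested genes, and the median log2 fold change was 0.03. Acss2, which makes acetyl-CoA from acetate, rose 1.55-fold, from 18.8 ± 0.75 to 29.1 ± 5.06 CPM (SD, n = 3 each, edgeR adjusted p = 0.0336). Acacb, the mitochondrial carboxylase whose malonyl-CoA restrains fatty acid oxidation, fell 1.81-fold, from 55.5 ± 11.6 to 30.6 ± 8.65 CPM (SD, n = 3 each, edgeR adjusted p = 0.0482). The elongase gene Elovl7 fell 2.26-fold, from 8.70 ± 0.537 to 3.84 ± 0.57 CPM (SD, n = 3 each, edgeR adjusted p = 0.012). Hsd17b12, a reductase of the elongation cycle outside the rule for named genes, rose 1.39-fold (edgeR adjusted p = 0.0495).

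The call of Elovl7 held in every alternative tried. Those of Acss2, Acacb and Hsd17b12 were lost whichever sample other than MCT replicate 2 was left out (edgeR adjusted p = 0.0578 to 0.156), on both FPKM scales and with the replicate number as a block (adjusted p = 0.0568 for Acss2, 0.0634 for Acacb and 0.0531 for Hsd17b12). With limma-voom Acacb and Hsd17b12 missed the threshold too (0.0502 and 0.0552). Hsd17b12 also missed it with median-of-ratios factors, upper-quartile factors and no filter (0.0505 to 0.0546). Acaca and Acacb, the cytosolic and mitochondrial carboxylases, stood at 2.80 ± 0.429 and 6.14 ± 1.15 FPKM in controls and at 2.33 ± 0.216 and 3.37 ± 0.932 FPKM in MCT lungs (SD, n = 3 each). Thrsp, a lipogenic nuclear protein gene that did not pass the filter and was chosen after its values were seen, had 0 counts in all 3 controls and 7, 12 and 9 counts in MCT replicates 1 to 3. That is 9.56-fold higher against a floor of 3 counts over the control group. The floor covers counting error of the controls only, and the 28 MCT counts were taken as they stood.

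**Figure D4:**
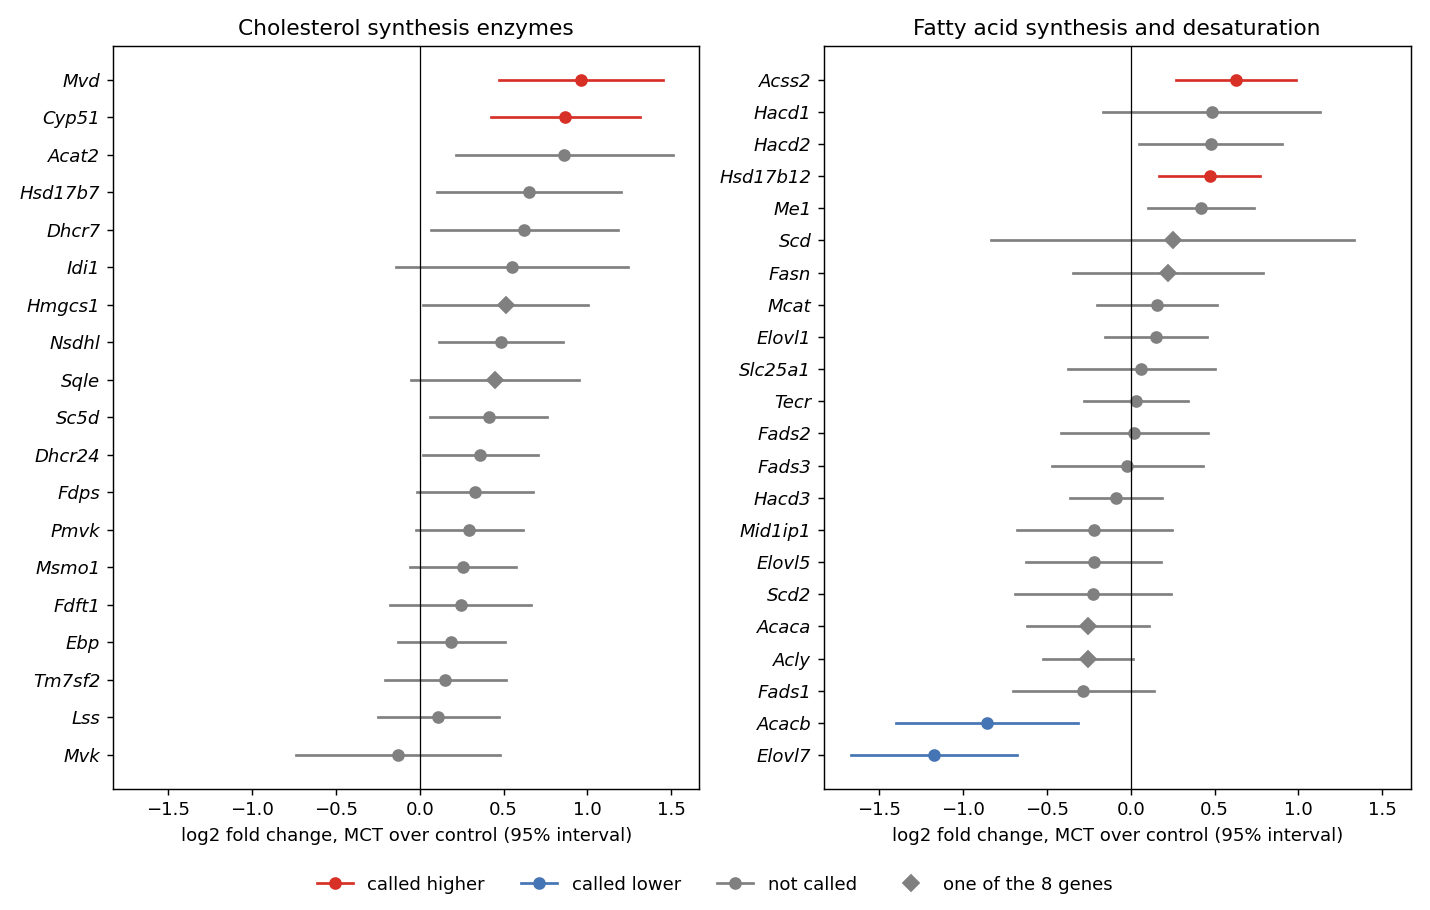
Log2 fold change, MCT over control, with its 95% interval for 19 of the 20 cholesterol synthesis enzymes (left) and 22 fatty acid synthesis genes (right), where red and blue are genes called higher and lower by edgeR, grey genes were not called, and diamonds mark members of the 8. On the left 18 of 19 points lie above 0 and 2 are red, and on the right 12 of 22 lie above 0 with Acss2 and Hsd17b12 red and Acacb and Elovl7 blue.

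The list of genes that process and control the Srebf factors or take up cholesterol, with Srebf1 and Srebf2 themselves, had 1 call. None of the 23 tested genes rose (0 of 23), 1 fell and 22 missed the threshold, against 8.01% higher and 5.11% lower over all tested genes. The median was -0.18, and -0.10 over the 21 genes other than Srebf1 and Srebf2. Scap, the sterol sensor that escorts the factors, had a log2 fold change of 0.04 with a 95% interval from -0.26 to 0.34 (edgeR adjusted p = 0.868), and Insig1, which retains Scap in the endoplasmic reticulum, had 0.12 (edgeR adjusted p = 0.7). The gene that fell was Mlxipl, the carbohydrate-sensing lipogenic factor ChREBP, from 7.58 ± 1.02 to 3.61 ± 1.23 CPM (SD, n = 3 each, edgeR adjusted p = 0.0499). Its call ended without any 1 of the 6 samples (edgeR adjusted p = 0.0614 to 0.147), on both FPKM scales and with the replicate number as a block (adjusted p = 0.0827). The table lists Elovl7 and Mlxipl under 2 identifiers each, and the more abundant one was used. Mylip, a ubiquitin ligase induced by liver X receptors, had -0.52 (edgeR adjusted p = 0.0667), and the lysosomal cholesterol exporters Npc1 and Npc2 had -0.47 and 0.55 (edgeR adjusted p = 0.075 and 0.0977). All 3 were called by DESeq2 (adjusted p = 0.0381, 0.0413 and 0.0239), which called 10.5% of all genes higher and 7.75% lower.

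Among genes of cholesterol export and liver X receptor response, 3 of 19 tested rose, 2 fell and 14 missed the threshold, where 8.01% and 5.11% of all tested genes rose and fell, with a median of 0.18. Apoe, the apolipoprotein that carries cholesterol from macrophages, rose 2.39-fold, from 584 ± 123 to 1396 ± 423 CPM (SD, n = 3 each, edgeR adjusted p = 0.0173). Cyp7b1, an oxysterol hydroxylase, rose 3.96-fold (edgeR adjusted p = 0.017), with MCT samples at 41.9, 12.6 and 21.6 CPM against 5.32, 6.03 and 7.76 CPM in controls. Lipa, the lysosomal acid lipase that frees cholesterol from its esters, rose 1.54-fold, from 150 ± 6.78 to 231 ± 11.1 CPM (SD, n = 3 each, edgeR adjusted p = 0.0102). Abca1 and Abcg1, the cholesterol export pumps, had 0.39 and 0.27 and were not called (edgeR adjusted p = 0.125 and 0.26). Outside the rule for named genes, the phospholipid transfer protein gene Pltp fell 1.75-fold (edgeR adjusted p = 0.018) and the lipoprotein receptor gene Scarb1 fell 1.42-fold (edgeR adjusted p = 0.0432).

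Without control replicate 3 none of these 5 calls held (edgeR adjusted p = 0.0516 to 0.122), and only that of Lipa held without control replicate 2. The call of Cyp7b1 also ended without control replicate 1 (adjusted p = 0.0544), that of Pltp without MCT replicate 1 or 3 (0.057 and 0.0695), and that of Scarb1 without any MCT sample (0.0778 to 0.121), with limma-voom (0.0505), on both FPKM scales (0.0594 and 0.0598) and with the replicate number as a block (0.0841).

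Glycerolipid and phospholipid synthesis, the step after fatty acids are made, had 1 of 37 tested genes higher, 1 lower and 35 not called, against 8.01% higher and 5.11% lower over all tested genes, with a median of 0.13. Pcyt1a, the rate-limiting enzyme of phosphatidylcholine synthesis, rose 1.38-fold (edgeR adjusted p = 0.0349), and Cds2, a CDP-diacylglycerol synthase, fell 1.84-fold (edgeR adjusted p = 0.0333). Both calls ended with the replicate number as a block (adjusted p = 0.0648 and 0.0816). That of Pcyt1a also ended without any 1 of the 6 samples and on both FPKM scales (adjusted p = 0.0527 to 0.106), and that of Cds2 when control 2, control 3, MCT 1 or MCT 3 was left out (0.0716 to 0.133). Ptdss1, a phosphatidylserine synthase, had 0.44 (edgeR adjusted p = 0.0573) and was called by DESeq2 (adjusted p = 0.0317). Lpcat1, the acyltransferase of surfactant phosphatidylcholine and the most abundant gene of this list by CPM, had -0.30 (edgeR adjusted p = 0.293).

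Markers of cells that use these pathways differed between the groups, and their part in the values above was not tested. The counts here and in the next paragraph stand against 8.01% of all tested genes called higher and 5.11% called lower. Of 15 alveolar type 2 markers 4 fell, 0 rose and 11 did not pass, and their summed level was 60268 to 67594 CPM in controls and 40868 to 60514 CPM in MCT lungs. MCT replicate 1 was lowest in that sum. It was also the lowest sample for Srebf1, Srebf2 and Acly, but the lowest was control replicate 3 for Fasn, control replicate 2 for Scd, MCT replicate 3 for Acaca and control replicate 1 for Hmgcs1 and Sqle. Etv5 fell by 1.37, Nkx2-1 by 0.74 and Slc34a2 by 1.35 (log2; edgeR adjusted p = 0.00788, 0.0187 and 0.0294). Outside the rule for named genes, Sftpa1, Sftpb, Sftpc and Sftpd had 0.14, -0.36, -0.59 and -0.01 and were not called (edgeR adjusted p = 0.209 to 0.976). Of the 15 markers, 3 had values above 0, with Cd74 the highest at 0.31 (edgeR adjusted p = 0.228). Lyz2 made up much of the list's sum, at 29394 to 38595 CPM in controls and 23075 to 32972 CPM in MCT lungs. Of 11 lipid-laden macrophage markers 9 rose, with a summed level of 2433 to 2534 CPM in controls and 3712 to 5590 CPM in MCT lungs. The 2 not called were Lpl at 0.18 and Cd9 at -0.42 (log2; edgeR adjusted p = 0.533 and 0.126), both outside the rule for named genes. Cd9 was a large part of the control sum, with a mean of 1012 CPM in controls and 754 CPM in MCT lungs, and its groups did not overlap. That list also holds Apoe. Trem2 rose by 2.68 and Gpnmb by 1.99 (log2; edgeR adjusted p = 0.00195 and 0.00197). The sum was 5590, 4357 and 3712 CPM in MCT replicates 1, 2 and 3. Hmgcs1, Mvd and Cyp51 were also highest in MCT replicate 1 but lowest of the MCT samples in replicate 2, and Sqle was highest in replicate 3.

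Among 12 general macrophage markers, 8 rose, 0 fell, 3 missed the threshold and 1 was not tested. Their sum, mostly Lyz2, which the alveolar type 2 list also holds, was 29962 to 39076 CPM in controls and 24320 to 33846 CPM in MCT lungs. Cd68 rose by 1.96, Siglec1 by 1.96 and Mrc1 by 1.15 (log2; edgeR adjusted p = 0.00282, 0.00191 and 0.00721). All 12 markers of dividing cells rose, with a summed 79.5 to 88.2 CPM in controls and 302 to 356 CPM in MCT lungs. Of the endothelial markers 5 of 12 fell and 0 rose (4453 to 4973 CPM in controls and 2267 to 3912 in MCT lungs), and of the mesothelial markers 5 of 7 tested fell and 0 rose (457 to 514 and 330 to 357 CPM). The mesothelial sum was mostly Krt19, which was not called, at 323 to 384 CPM in controls and 302 to 331 CPM in MCT lungs. Of 9 tested club and secretory cell markers 2 rose and 1 fell, with overlapping sums. Of 2 tested hepatocyte markers edgeR called 0, also at an unadjusted p under 0.05, with sums of 19 to 38.4 and 2.03 to 28.1 CPM. Of 12 adipocyte markers 8 were tested and 2 rose, Fabp4 by 3.05 and Cfd by 1.38 (log2; edgeR adjusted p = 0.00132 and 0.00514), and macrophages also express Fabp4. Of the 8 tested, 3 had values below 0 and none of these was called. Among them was Lipe, the most abundant of the list by CPM, at -0.74 (edgeR adjusted p = 0.0773). Of the defining adipocyte genes, Plin1 had 0 to 5 and Lep 0 to 3 counts per sample, while Adipoq had 21 to 50 counts and was tested but not called (edgeR adjusted p = 0.503). The summed adipocyte markers were 152 to 238 CPM in controls and 234 to 284 CPM in MCT lungs. Within that sum, mean Lipe was 151 CPM in controls and 90.6 CPM in MCT lungs, and mean Fabp4 was 11.8 and 98 CPM.

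The genes whose pattern over the 6 samples was most like each member, among 11154 other named genes with a mean of at least 5 CPM, were found by the root mean square difference of centred log2 CPM. They were Cxcr1 for Fasn (0.10), Rprml for Scd (0.14), Rbmx for Acaca (0.03), Thap11 for Acly (0.03), Prpf40b for Srebf1 (0.02), Trim41 for Srebf2 (0.03), Gtf2f2 for Hmgcs1 (0.09) and P2ry2 for Sqle (0.08). The next were Slc2a12 for Fasn (0.13), Dll1 for Scd (0.23), Zfp277 for Acaca (0.04), Lmcd1 for Acly (0.04), Heg1 for Srebf1 (0.05), Fam129b for Srebf2 (0.04) and Zfp593 for Sqle (0.09). Among pairs of the 8, Acly and Srebf2 were the closest (0.07), followed by Hmgcs1 and Sqle (0.11) and by Srebf1 and Srebf2 (0.12). This measure is small for any 2 genes that vary little. The own spreads were 0.16 for Acly and 0.18 for Srebf2, against 0.38 for Hmgcs1 and 0.37 for Sqle.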

How the data were processed

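PolyA RNA of whole lung was sequenced in 6 samples, 3 per group, with groups and replicate numbers taken from the sample titles. The authors deposited estimated counts and FPKM values per gene, per the file headers and the values, and between 90.7% and 91.5% of the counts above 0 were whole within 1e-06. Per the submitters' processing notes, Bowtie2, TopHat2 2.0.3.12 and the build Rnor_6.0 were used. The sources used here name no gene counter, annotation release, strand setting or rule for reads with several matches. Summed counts were 13525912 to 17916134 per sample, and same-group pairs of samples differed beyond counting error (chi-square per degree of freedom 23.2 to 52.6).

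Counts were rounded and tested with edgeR 4.0.16 (R 4.3.3), using TMM, filterByExpr (min.count 10, min.total.count 15), glmQLFTest on all 6 samples with no covariates, and Benjamini-Hochberg adjustment over 15250 genes. Intervals are 95% intervals of this fit. Alternatives were DESeq2 1.42.0, limma-voom (limma 3.58.1), 2 other scalings, 2 other filters, limma on log2(FPKM + 1) and log2(FPKM + 0.1) with a mean FPKM of at least 0.5, counts summed over identifiers, the replicate number as a block, and each sample left out. The scripts were tested on simulated data. No other per-sample columns were present.

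The named genes are the 8 members, Insig1, Scap, Abca1, Abcg1, the 3 smallest p and the highest mean CPM in each pathway or marker list, and the 2 genes most like each member. Some genes that the rule names are not reported here. Marker lists that no member is discussed with are given as counts. The members and lists were chosen with earlier results of these data known. Promoter windows are from RefSeq.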

Additional observations from a re-analysis of the deposited data

How the results depend on the processing

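No member was called under any of 16 alternatives: over 128 member values edgeR, DESeq2 or limma gave 0 calls (adjusted p = 0.0602 to 0.997), and 126 kept their sign. With 1 sample left out, the log2 fold change of Scd ran up to 0.958, and the exceptions were Scd at -0.0738 without control replicate 2 and -0.0991 without MCT replicate 2. Scap ran up to 0.164 and turned to -0.0118, -0.0154 and -0.0251 without control replicate 1, control replicate 3 and MCT replicate 3. Of 448 values of 28 other named pathway genes, 359 kept direction and side of the threshold, 80 lost a call and 6 gained one. With 1 sample left out, 481 to 1394 genes were higher and 212 to 978 lower, against 1221 and 779, and DESeq2 gave 1182 lower. With 1 sample left out, called cholesterol enzymes (2) numbered 0 to 2, fatty acid genes (4) 1 to 5, Srebf control genes (1) 0 to 1, export genes (5) 0 to 6 and glycerolipid genes (2) 0 to 2. Among the fatty acid genes 2 were called with limma-voom, 1 on each FPKM scale and 1 with the replicate block. DESeq2 called 6 Srebf control genes and 8 export genes, and both FPKM scales and the replicate block called 0 Srebf control genes. Both FPKM scales called 1 glycerolipid gene and the replicate block 0. Leaving out any 1 sample lowers the residual degrees of freedom alike, and why the counts differed between these fits was not tested. Same-numbered samples did not deviate together (correlations -0.0695 to -0.0024, and 0 of 6 samples correlated best with its own number). With 3 samples per group these values cannot show whether same-numbered samples were handled together. Depth limits Thrsp, at 12 counts or fewer per sample. Every member had at least 187.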
